A study of Mus musculus with 4 samples.

Results

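The liver keeps blood glucose up between meals by making glucose from lactate, glycerol and amino acids. The genes described here encode the enzymes of that route, the system that frees glucose from glucose-6-phosphate, the glucose carrier of the hepatocyte membrane and regulators of their transcription. The 10 genes were G6pc, Slc37a4, Pck1, Pcx, Fbp1, Got1, Ppargc1a, Slc2a2, Foxo1 and Crtc2 by name, a list drawn up with earlier results of these arrays known. They were matched by the platform's gene symbol among 19938 genes with a symbol, and all 10 of them were among the 11963 genes bright enough to be tested. Each had 1 probe set except Ppargc1a, whose 2 probe sets were averaged.

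Total RNA of mouse liver was hybridized to 4 Affymetrix gene arrays. The WT-labelled groups were livers of mice with wild type SIRT6 at 2 and at 8 months of age. The KO-labelled groups were livers of SIRT6Co/Co ;Alb-Cre mice at the same ages, in which Cre is driven by the albumin promoter and so is active in hepatocytes. Its activity in other liver cells of these mice was not measured here. RNA of 3 pairs of mice was combined, and each group is 1 array, so the spread between animals of a group was not measured. The sources used here give no strain background, sex, feeding state or time of day at collection.

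Values are log2 signals as deposited by the authors, and a difference of 1 is a factor of 2. They ran from 0.89 to 13.3 with array medians between 3.52 and 3.58. Signals of Sirt6, the targeted gene, were 4.55 (2 months) and 4.50 (8 months) for WT and 4.54 and 4.46 for KO, so its probe set does not set the groups apart, and every direction below rests on the labels. The sources used here do not give the exons it covers. All 7 measured hepatocyte markers, albumin (Alb) among them, read between 11.7 and 12.6 and 0 of them passed the test described below. Cps1, at -0.19 and -0.29, and Apoa1, at -0.23 and -0.24, came closest (adjusted p 0.0594 and 0.0596 in limma). Ttr, at 0.19 and 0.08, had the opposite sign. The lowest signal of any measured marker was 1.78, for Sis in the KO-labelled array at 8 months. The summed linear signal of 6 immediate early genes (Fos, Jun, Egr1, Atf3, Btg2 and Ier2) was 290.0 and 266 with the WT label (2, then 8 months) against 2000.0 and 1950.0 with the KO label, and all 6 rose. That of 6 Kupffer cell genes was 254 and 244 against 331 and 314, where Cd5l and Vsig4 rose of the 5 tested. Clec4f, at -0.04 and 0.06, did not pass. The summed signal of 5 endothelial genes was 326 and 324 against 354 and 331. Of these, Cdh5 rose by 0.45 (adjusted p 0.0236 in limma) and Lyve1, at 0.63 and 0.26, did not pass. Stab2, at -0.04 and -0.15, had the opposite sign and did not pass. The summed signal of 6 stellate cell genes was 913 and 915 against 882 and 860.0, where Acta2 and Col1a1 fell. Dcn, the brightest of them, was at 0.12 and 0.07 and did not pass. The summed signal of 4 intestine genes was 208 and 212 against 164 and 124. Only 1 of them, Fabp2, was bright enough to be tested, and it fell by 0.63 (adjusted p 0.00281 in limma). It read 7.57 and 7.61 against 7.19 and 6.73. Of the dim ones Vil1, at 0.19 and 0.40, had the opposite sign, and Cdx2 and Sis did not. In the cholangiocyte, the lymphocyte and neutrophil, and the kidney lists, 0 genes passed of the 3, 1 and 1 bright enough to be tested. The part of these markers in the results below was not tested. In whole liver RNA, fewer cells of a type and less RNA per cell cannot be told apart.

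Gluconeogenesis runs much of glycolysis backwards and replaces its irreversible steps by enzymes of its own. Pyruvate carboxylase (Pcx) makes oxaloacetate in mitochondria, phosphoenolpyruvate carboxykinase (Pck1) turns oxaloacetate into phosphoenolpyruvate, and fructose-1,6-bisphosphatase (Fbp1) and glucose-6-phosphatase remove phosphate. The last step takes place in the endoplasmic reticulum. Slc37a4 encodes the transporter that carries glucose-6-phosphate in, and G6pc encodes the catalytic subunit that hydrolyses it. Glucagon raises cAMP, which activates CREB and its coactivator CRTC2, while insulin acts through AKT to keep FOXO1 out of the nucleus. SIRT6, a deacetylase of chromatin that uses NAD, has been described to act on this pathway.

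The control regions of the genes are shown because these factors are known to act on G6pc and Pck1 through sites close to the start of transcription. The windows hold the 250 bases before the transcription start in RefSeq (build GRCm38.p6), and 9 of the 10 genes had an entry. Positions count back from the base before the start, which is -1, and give the first base of a match. Capitals mark matches on either strand to CAAAACA, the core of the insulin response element bound by FOXO1, to TGACG, the core of the cAMP response element, and to TATAAA, the TATA box.
G6pc (chr11:101367466-101367715, + strand): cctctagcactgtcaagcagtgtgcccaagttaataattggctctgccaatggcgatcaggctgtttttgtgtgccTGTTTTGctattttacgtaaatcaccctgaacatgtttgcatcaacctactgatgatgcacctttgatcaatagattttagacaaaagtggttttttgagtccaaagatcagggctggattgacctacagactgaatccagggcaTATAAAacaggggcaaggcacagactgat
Igfbp1 (chr11:7197537-7197786, + strand): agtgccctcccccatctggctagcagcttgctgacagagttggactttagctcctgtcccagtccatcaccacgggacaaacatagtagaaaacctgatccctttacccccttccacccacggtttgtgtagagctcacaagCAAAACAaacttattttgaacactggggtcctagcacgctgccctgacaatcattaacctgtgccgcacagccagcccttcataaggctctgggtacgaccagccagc
Pck1 (chr2:173152823-173153072, + strand): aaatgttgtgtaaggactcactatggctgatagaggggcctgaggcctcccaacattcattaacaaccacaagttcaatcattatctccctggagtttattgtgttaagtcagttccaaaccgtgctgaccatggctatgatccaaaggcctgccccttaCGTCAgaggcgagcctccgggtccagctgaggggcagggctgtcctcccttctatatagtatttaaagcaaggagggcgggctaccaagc
Slc37a4 (chr9:44396849-44397098, + strand): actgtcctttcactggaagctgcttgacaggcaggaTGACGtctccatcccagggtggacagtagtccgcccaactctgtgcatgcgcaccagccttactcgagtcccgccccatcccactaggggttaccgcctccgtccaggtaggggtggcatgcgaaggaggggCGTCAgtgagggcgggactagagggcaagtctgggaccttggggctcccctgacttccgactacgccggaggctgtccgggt
The G6pc window held CAAAACA on the opposite strand at -174 and TATAAA at -29. Igfbp1, an insulin-repressed gene of the signalling list below, held CAAAACA at -108, and Irs2 held it on the opposite strand at -37. The Pck1 window held TGACG on the opposite strand at -90. The Slc37a4 window shown is the middle one of 3 in the table and held TGACG at -214 and, on the opposite strand, at -82. The window before it overlaps it and held the former of these matches at -61, and the one after it held TATAAA at -32. Ppargc1a held TGACG on the opposite strand at -49. No window of Pcx, Fbp1, Got1, Slc2a2 or Foxo1 held any of these letters. Over all 32851 promoter windows of the table, 5.56% held CAAAACA, 17.8% held TGACG and 12.4% held TATAAA. The full element TGACGTCA, which contains TGACG, and GTAAACA, another FOXO1-bound sequence, were in 1.55% and 3.17% of all windows and in 0 of the 9 genes. A match is a description of the letters and not a measured site. Only exact matches were counted, so a window without one can still hold an altered form of an element.

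**Figure D1:**
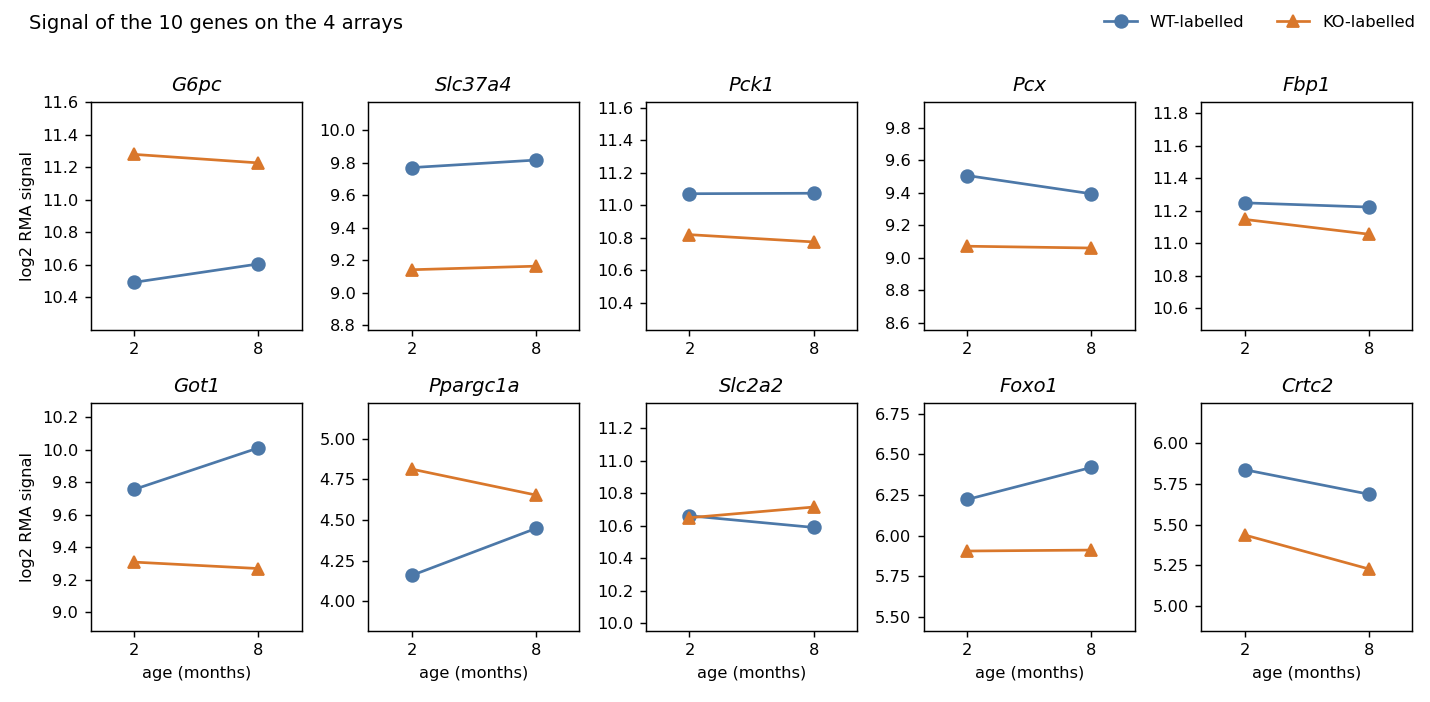
Log2 signal (y axis, each panel spanning 1.4 log2 units) at 2 and 8 months of age (x axis) for the 10 genes; circles are the WT-labelled and triangles the KO-labelled arrays, 1 array of pooled RNA each, and lines join the arrays of one genotype. G6pc and Ppargc1a lie higher in both KO-labelled arrays, the lines of Slc2a2 cross, and the other 7 genes lie lower in both KO-labelled arrays.

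The catalytic and the transport part of the glucose-6-phosphatase system differed between the genotypes in opposite directions. G6pc (probe set 10381387) had signals of 10.49 and 10.61 in WT-labelled livers at 2 and 8 months, respectively, against 11.28 and 11.23 in KO-labelled livers. Values follow in this order of ages below. Both KO-labelled pools were higher than both WT-labelled pools, and the smallest distance between an array of one genotype and one of the other was 0.62. Slc37a4 (probe set 10584741) read 9.77 and 9.82 in the WT-labelled against 9.14 and 9.16 in the KO-labelled pools. Here both KO-labelled pools were lower, again without overlap, and the gap was 0.61.

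The genotype effect was tested with an additive limma model of genotype and age over all 4 arrays and all tested genes, at a Benjamini-Hochberg adjusted p of 0.05. Its error is the departure from additivity, moderated across genes, and it does not measure the spread between pools of 1 group. Only genes past that threshold are said to rise or fall, and the direction is that of the KO-labelled arrays. G6pc rose by 0.70 log2 units (SE 0.08, 95% interval 0.54 to 0.87), a factor of 1.63, with an adjusted p of 6.02e-05. Slc37a4 was at -0.64 (SE 0.08, interval -0.80 to -0.48), a factor of 1.56 lower, and fell with an adjusted p of 0.000112. Within an array, the log2 difference of G6pc over Slc37a4 was larger in the KO-labelled pool by 1.42 at 2 months and 1.27 at 8 months. An exact two-sided permutation of the 4 arrays gave p = 0.333 for this shift, which is the smallest value that 2 arrays against 2 can give.

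The test called 7 of the 10 genes, of which G6pc rose and 6 fell. Over all tested genes 6.81% rose and 4.26% fell. The median difference of the 10 genes was -0.28 at 2 months and -0.32 at 8 months, where that of all tested genes was 0.01 and 0.00. In 2 of the 10 genes both KO-labelled arrays lay above both WT-labelled arrays, and in 7 both lay below, where the shares of all tested genes were 29.1% and 25.7%. Given how the 10 genes were listed, these counts describe them and carry no test of their own.

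**Figure D2:**
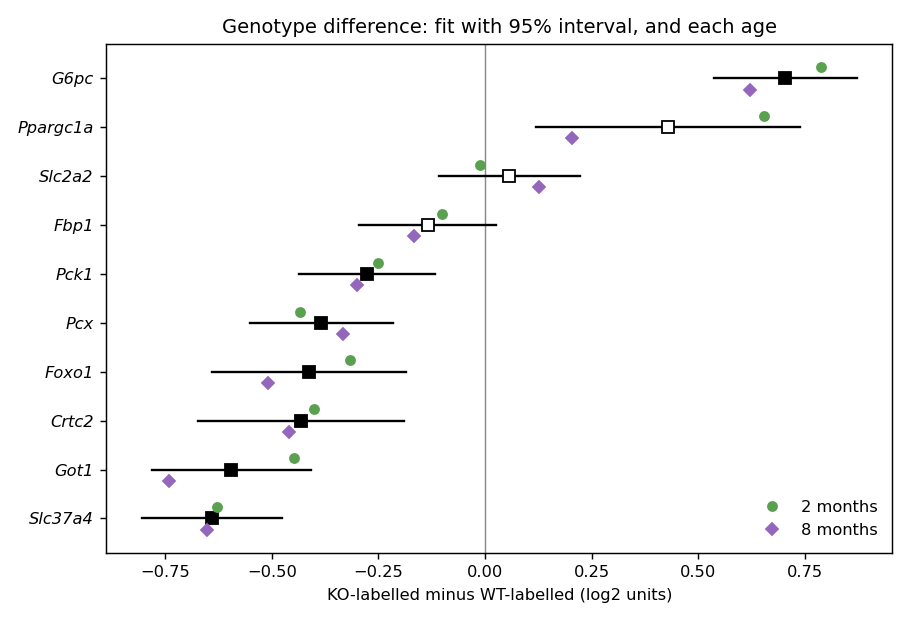
KO-labelled minus WT-labelled signal in log2 units (x axis) for the 10 genes (y axis), ordered by the fitted difference. Squares with bars are the additive limma fit and its 95% interval, filled where the adjusted p is under 0.05; circles are the difference at 2 months and diamonds that at 8 months. G6pc is the only filled square above 0, and 6 filled squares lie below it.

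Among the enzymes that feed the route, Pcx, Pck1 and Got1 were all lower in the KO-labelled arrays. Pcx (probe set 10460400), which makes the oxaloacetate that the pathway starts from, read 9.51 and 9.39 in the WT-labelled against 9.07 and 9.06 in the KO-labelled pools. It fell with a fitted difference of -0.38 (SE 0.08, adjusted p 0.0061). The call was lost without the intensity trend (adjusted p 0.0698), in a range of 2.41e-05 to 0.0698 over the settings. The KO-labelled pools of the 2 ages lay close together for this gene, and the gap to the WT-labelled pools was 0.32.

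Got1 (probe set 10467842), the cytosolic aspartate aminotransferase that helps to move oxaloacetate out of mitochondria as aspartate, read 9.76 and 10.01 in the WT-labelled against 9.31 and 9.27 in the KO-labelled pools. The fitted difference was -0.59 (SE 0.09, adjusted p 0.000619). At 2 months the difference was -0.45 and at 8 months -0.74, and most of the distance between these values came from the WT-labelled arrays, where the 8-month pool was 0.26 higher than the 2-month pool. With 1 array a group, no test can say whether the genotype difference of Got1 depended on age.

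Pck1 (probe set 10479047), the cytosolic carboxykinase that is often used as the marker of gluconeogenic transcription, read 11.07 in both WT-labelled arrays and 10.82 and 10.77 in the KO-labelled arrays. The arrays of one genotype were nearly level and the groups did not overlap, with a gap of 0.25. The fitted difference was -0.28 (SE 0.07, interval -0.44 to -0.12), and Pck1 fell with an adjusted p of 0.0301. This is the call of the 6 with the highest adjusted p. It was lost without the filter on dim genes (0.069), without the intensity trend (0.159) and with arrays centred on their medians (0.105), and over all settings tried the adjusted p ran from 0.000525 to 0.159. G6pc and Pck1, which are usually named together as the pair of genes induced in fasting, thus had differences of opposite sign at both ages. The within-array difference of G6pc over Pck1 was larger in the KO-labelled pool by 1.04 and 0.92.

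Fbp1 (probe set 10410007), the bisphosphatase of the middle of the route, read 11.25 and 11.22 in the WT-labelled against 11.15 and 11.06 in the KO-labelled pools. The KO-labelled values were lower at both ages, but by 0.08 between the nearest arrays. The fitted difference of -0.13 had a 95% interval of -0.29 to 0.03 and an adjusted p of 0.288 in limma. Neither no difference nor one down to that lower bound was excluded.

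Slc2a2 (probe set 10491171) encodes GLUT2, the low-affinity carrier through which glucose crosses the hepatocyte membrane. It read 10.66 and 10.59 in the WT-labelled against 10.65 and 10.72 in the KO-labelled pools, and it was the only gene of the 10 whose groups overlapped. The difference was -0.01 at 2 months and 0.13 at 8 months. The fitted value was 0.06 with an interval of -0.11 to 0.22 and an adjusted p of 0.71.

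The regulators Ppargc1a, Foxo1 and Crtc2 had standard errors of 0.10 to 0.14 log2 units, wider than the 0.07 to 0.09 of the enzymes and carriers. Ppargc1a encodes PGC-1 alpha, the coactivator that fasting induces and that works with FOXO1 and HNF4A on gluconeogenic genes. Its level, averaged over its probe sets, was 4.16 and 4.45 in the WT-labelled against 4.81 and 4.65 in the KO-labelled pools. The KO-labelled pools were higher without overlap, by 0.65 at 2 months and 0.21 at 8 months. The fitted difference of 0.43 (SE 0.14, interval 0.12 to 0.74) did not pass, with an adjusted p of 0.0763 and an unadjusted p of 0.0105 in the limma model. It passed under cyclic loess alone (0.0197), and the adjusted p ran from 0.0197 to 0.178 over the settings. One probe set (10529979) differed by 0.55 and 0.20 and the other (10529977) by 0.76 and 0.21, so both showed the larger difference at 2 months.

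Foxo1 (probe set 10491962), the insulin-restrained activator of G6pc and Pck1, read 6.22 and 6.42 in the WT-labelled against 5.91 and 5.91 in the KO-labelled pools. The KO-labelled pools were level with each other and lower than both WT-labelled pools. Foxo1 fell, with a fitted difference of -0.41 (SE 0.10) and an adjusted p of 0.0236. The call was lost without the filter (0.0741) and without the trend (0.0624), in a range of 0.00163 to 0.0741. Crtc2 (probe set 10493711), the cAMP-regulated coactivator of CREB, read 5.84 and 5.69 in the WT-labelled against 5.44 and 5.23 in the KO-labelled pools. It fell, at -0.43 (SE 0.11, adjusted p 0.0257), and this call was lost without the filter (0.0683), in a range of 0.0038 to 0.0683. These are transcript levels, and both proteins are also controlled by phosphorylation and location in the cell, which arrays do not measure.

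At each age only 1 array stands for a genotype, so no test was made there and genes at least 1.5-fold apart were counted. At 2 months G6pc and Ppargc1a were at least 1.5-fold higher, where 3.98% of tested genes were, and Slc37a4 was lower, where 2.39% were. The brighter probe set of Ppargc1a (10529979), at 0.55, did not reach 1.5-fold by itself. The dimmer one (10529977) read 3.26 in the WT-labelled array at 2 months, below that array's median of 3.57. At 8 months G6pc was higher, where 2.41% of tested genes were, and Slc37a4 and Got1 were lower, where 1.93% were. No gene of the 10 reached a factor of 2 at either age. The direction was the same at both ages in 9 of the 10 genes, Slc2a2 being the exception. The difference at 8 months less that at 2 months lay between -0.45, for Ppargc1a, and 0.14, for Slc2a2, and its median size was 0.12, where that of all tested genes was 0.16.

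**Figure D3:**
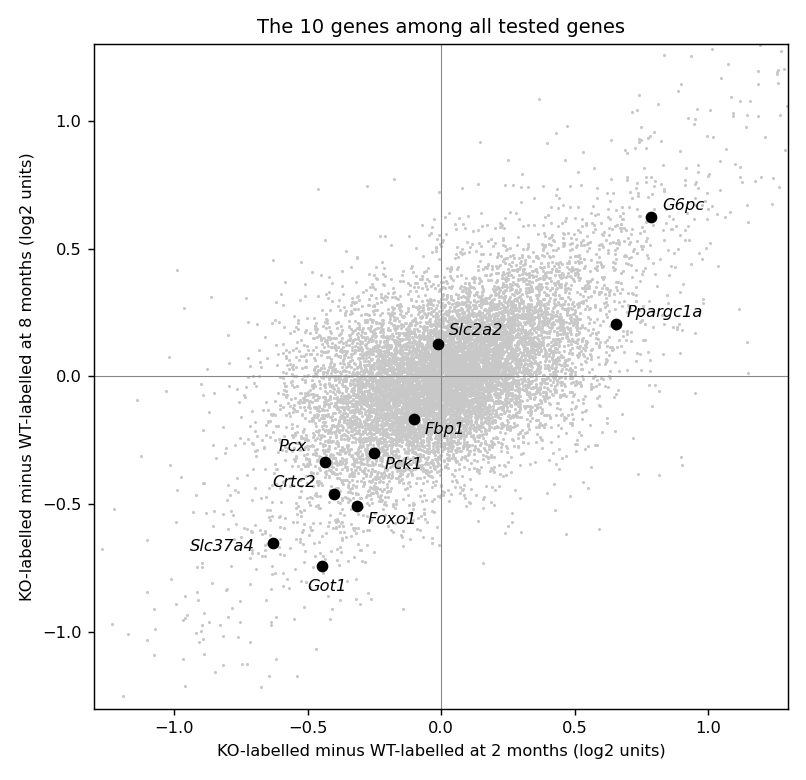
KO-labelled minus WT-labelled signal at 2 months (x axis) against that at 8 months (y axis), in log2 units; grey points are all 11963 tested genes, of which 109 lie more than 1.3 from 0 on an axis and are not drawn, and black points are the 10 genes. The differences at the 2 ages share no array. G6pc and Slc37a4 lie in opposite corners, Ppargc1a lies to the right with a smaller value at 8 months, and Slc2a2 lies near the centre.

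Age was the other factor of the design. In the additive limma model 0 of the 10 genes passed for age, and 0 had an unadjusted p under 0.05, where 0.00836% of tested genes passed and 431 genes had such an unadjusted p. From 2 to 8 months 0 of the 10 genes were 1.5-fold apart in WT-labelled or in KO-labelled livers, where 0.652% of tested genes were in each. The largest age difference among the 10 was 0.29 in the WT-labelled arrays, for Ppargc1a, and 0.21 in size in the KO-labelled arrays, for Crtc2, which was at -0.21. The 95% intervals of the fitted age effect were within -0.42 and 0.37 for all 10 genes, and each included 0. Age differences within the interval of a gene were not excluded.

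Other genes of the pathway were taken from 6 lists with 105 entries, of which 89 were tested. In all 12 rose (13.5%) and 13 fell (14.6%), where 6.81% of all tested genes rose and 4.26% fell. The median differences of these 89 genes were 0.04 at 2 months and -0.02 at 8 months, where those of all tested genes were 0.01 and 0.00. These lists too were chosen with earlier results known, and no test compares them with other genes. Their values follow by role, with the share of each list that rose and fell.

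**Figure D4:**
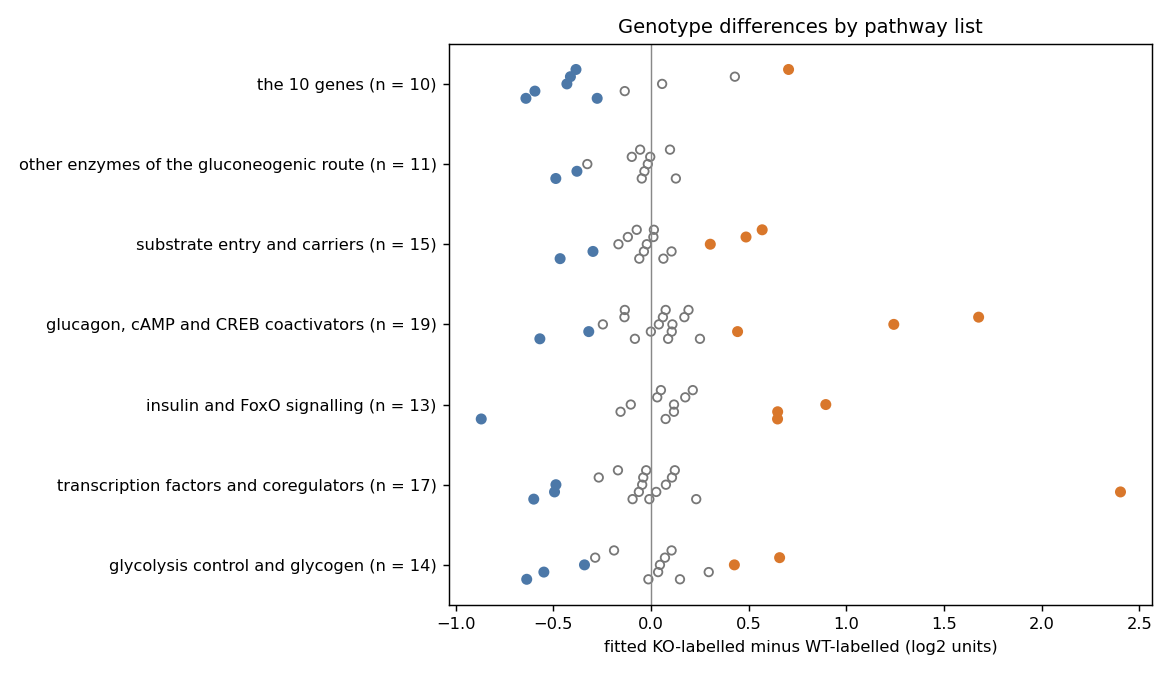
Fitted KO-labelled minus WT-labelled difference in log2 units (x axis) of the 10 genes and of the tested genes of 6 pathway lists (y axis, n is the number tested); filled points passed an adjusted p of 0.05, orange higher and blue lower, and open points did not. The highest points are Nr4a1, Sik1 and Crem, and the lowest is Trib3.

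The other enzymes of the route had 11 tested genes, of which 2 fell (18.2%) and 0 rose. They are isoenzymes of G6pc, Pck1 and Fbp1, aminotransferases, malate dehydrogenases and enzymes that work in both gluconeogenesis and glycolysis. Both that fell pass the amino group of alanine on and so make pyruvate. Gpt, alanine aminotransferase of the cytosol, read 8.68 and 8.52 in the WT-labelled against 8.28 and 8.16 in the KO-labelled pools (fitted difference -0.38, adjusted p 0.00804, which was 0.0701 without the intensity trend). Gpt2, the mitochondrial form, read 8.72 and 8.87 against 8.35 and 8.26 (-0.49, adjusted p 0.00255). The mitochondrial aspartate aminotransferase Got2 was the highest of this list, at 0.14 and 0.12, and did not pass (adjusted p 0.321). The isoenzymes, singled out after their values were seen, did not pass either. G6pc3, a glucose-6-phosphatase found in most tissues, was at -0.11 and -0.54, the mitochondrial carboxykinase Pck2 at -0.12 and 0.05, and the muscle bisphosphatase Fbp2 at -0.06 and -0.13.

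Substrate entry had 15 tested genes, of which 3 rose (20.0%) and 2 fell (13.3%). Slc38a2, a carrier of neutral amino acids, read 9.58 and 9.63 in the WT-labelled against 10.08 and 10.10 in the KO-labelled pools and rose (0.49, adjusted p 0.000939). The others that rose were Ldhb, a subunit of lactate dehydrogenase, with 0.44 and 0.70, and Gpd2, the mitochondrial glycerol-3-phosphate dehydrogenase, with 0.28 and 0.33. The Ldhb call was lost without the filter (0.0597) and with the brightest probe set alone (0.0574). The Gpd2 call was lost in 3 of 9 alternatives, with adjusted p from 0.0239 to 0.128. Slc16a7, a carrier of lactate and pyruvate, fell from 8.24 and 8.28 to 7.77 and 7.81 (-0.47, adjusted p 0.0024). Slc25a13, the aspartate and glutamate carrier of mitochondria, fell with -0.26 and -0.34, a call also lost in 3 of 9 alternatives, with adjusted p from 0.000364 to 0.135.

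Glucagon and cAMP signalling had 19 tested genes, of which 3 rose (15.8%) and 2 fell (10.5%), the other 14 staying short of the threshold. The glucagon receptor Gcgr, the lowest of the list, read 8.76 and 8.77 in the WT-labelled against 8.18 and 8.21 in the KO-labelled pools, and it fell (-0.57, SE 0.08, adjusted p 0.000448). Sik1, a kinase that cAMP induces and that phosphorylates CRTC2, read 6.42 and 6.36 against 8.07 and 8.06 and rose (1.68, SE 0.09, adjusted p 8.56e-08). Crem, a CREB family gene that also gives rise to a cAMP-induced repressor, read 4.84 and 4.79 against 6.12 and 5.996 and rose (1.24, SE 0.11, adjusted p 1.28e-05). Both genes respond quickly to stimuli, as the immediate early genes above do, and those were higher in the same arrays. Whether these differences share a cause was not tested. With 1 array per group, genotype and conditions of collection cannot be told apart. The regulatory subunit Prkar2a of protein kinase A rose with 0.54 and 0.34, a call lost without the filter (0.0532). The hepatic CREB relative Creb3l3 fell with -0.30 and -0.33, a call lost in 3 of 9 alternatives, with adjusted p from 0.000605 to 0.112.

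Insulin and FoxO signalling had 13 tested genes, of which 3 rose (23.1%) and 1 fell (7.69%). Of those that rose, Irs2 and Igfbp1 are known as targets of FOXO1. Irs2, an adaptor of the insulin receptor, read 5.56 and 5.63 in the WT-labelled against 6.53 and 6.46 in the KO-labelled pools. Igfbp1, a secreted binding protein that insulin represses, read 9.05 and 9.10 against 9.71 and 9.73. Pik3r1, the regulatory subunit of phosphoinositide 3-kinase, read 7.28 and 7.49 against 8.04 and 8.02. For these genes both KO-labelled arrays lay above both WT-labelled arrays, as in 29.1% of all tested genes. Foxo1 and Pck1 were lower in the same arrays. The windows of G6pc, Igfbp1 and Irs2 hold the CAAAACA letters printed or named above, as 5.56% of all promoter windows do. The Pck1 window does not, but only 250 bases were searched, and matches further from its start would be missed. A part of FOXO1 in these differences was not tested. Of the list genes, 10 of the 12 that rose had a promoter entry and 2 of these held CAAAACA. Of the 13 that fell, 9 had an entry and 1, Creb3l3, held it, at -148. Trib3, a pseudokinase that restrains AKT, fell from 5.35 and 4.99 to 4.25 and 4.35.

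Transcription factors and coregulators had 17 tested genes, of which 1 rose (5.88%) and 3 fell (17.6%). Nr4a1, a nuclear receptor induced within minutes by glucagon and by many other stimuli, read 7.27 and 7.17 in the WT-labelled against 9.66 and 9.59 in the KO-labelled pools and rose (2.40, SE 0.08, adjusted p 1.02e-09). Its promoter window held TGACG on the opposite strand at -233, -213, -69 and -40. Of the list genes with a promoter entry, 3 of the 10 that rose and 4 of the 9 that fell held TGACG. Among all promoter windows 17.8% did. Ppargc1b, the relative of Ppargc1a, was the lowest and fell from 5.58 and 5.46 to 4.94 and 4.89 (-0.60, adjusted p 0.00511), the opposite sign to Ppargc1a. Foxa2, a pioneer factor of liver genes, fell with -0.61 and -0.36, a call lost without the filter (0.0694), and the fatty acid receptor Ppara fell with -0.42 and -0.57. Kat2a encodes GCN5, an acetyltransferase of PGC-1 alpha. It was singled out after its values were seen, and it was at 0.08 and 0.07 without passing (adjusted p 0.753).

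Glycolysis control and glycogen, the opposite fates of glucose-6-phosphate, had 14 tested genes, of which 2 rose (14.3%) and 3 fell (21.4%). Phka2, the liver subunit of the kinase that activates glycogen phosphorylase, read 6.61 and 6.51 in the WT-labelled against 5.95 and 5.90 in the KO-labelled pools and fell (-0.64, adjusted p 0.00106). Ppp1r3c, a scaffold that brings phosphatase to glycogen, fell with -0.41 and -0.68. The liver glycogen synthase Gys2 fell with -0.18 and -0.50, a call lost in 3 of 9 alternatives, with adjusted p from 0.000122 to 0.131. The branching enzyme Gbe1 rose, with 8.99 in both WT-labelled arrays and 9.41 and 9.42 in the KO-labelled arrays. The liver pyruvate kinase Pklr, which works against gluconeogenesis by consuming phosphoenolpyruvate, rose with 0.58 and 0.73.

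The genes whose pattern over the 4 arrays was most like that of G6pc and of Slc37a4 were found by the distance between their profiles after each gene's own mean was removed. This uses 4 values per gene, and many genes come close. For G6pc they were Pdia4, a disulfide isomerase of the endoplasmic reticulum, at a distance of 0.04 log2 units, Tob1, an antiproliferative factor, at 0.05, and the macrophage gene Cd5l at 0.06. Their KO-labelled minus WT-labelled differences were 0.78 and 0.64, 0.83 and 0.57, and 0.84 and 0.60. For Slc37a4 they were the proteasome factor Psmd9 at 0.02, the lipid-anchor remodelling gene Pgap2 at 0.02 and the protease gene Htra4 at 0.04, with differences between -0.60 and -0.66.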

How the data were processed

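Each of the 4 arrays holds total liver RNA pooled from 3 pairs of mice. The authors deposited log2 values that, per the submitters' processing notes, come from RMA and Affymetrix Expression Console 1.0v. RMA brings the distributions of the arrays to a common scale, which can remove differences in the amount of RNA in a cell. The deposited distributions were close but not identical. Medians ran from 3.52 to 3.58, and the highest value was 13.27 in both WT-labelled and 13.18 in both KO-labelled arrays. The annotation, and which arrays were normalized together, are not given in the sources used here.

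Of 35556 probe sets, 21789 with 1 symbol in the platform table gave 19938 genes, and probe sets of a gene were averaged. RefSeq identifiers changed 0 symbols. Genes with a mean above the 40th percentile (3.34) were tested, 11963 in all. The model was genotype plus age, fitted with limma 3.58.1 (R 4.3.3) and a trend of the variance on intensity. It had 1 residual and 11.3 prior degrees of freedom, so P-values do not measure the spread between pools or animals. The code was also run on data simulated with the model's own fitted error. Those data hold no separate spread between pools, so that run cannot show how the model handles it. An array has no read depth, and the number of arrays limits the precision.

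The 10 genes, the lists, the motifs and the tests were chosen with earlier results of these data known. Named were the 10 genes, list genes past the threshold, the highest and lowest of each list, the 3 most similar profiles, Sirt6 and the markers. Of 105 list entries 91 were matched to a probe set with 1 symbol and the others were not analysed here. Alternatives changed the filter, the trend, the prior, the scaling, the probe set rule, the fold threshold and the model.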

Additional observations from a re-analysis of the deposited data

Results flagged for a closer look

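With 1 array per group, the following pairs of values had opposite signs in the groups compared, and none of these differences was tested. The 8 minus 2 month difference was 0.113 in WT-labelled and -0.052 in KO-labelled livers for G6pc, 0.003 and -0.045 for Pck1, 0.255 and -0.040 for Got1, 0.289 and -0.159 for Ppargc1a, and -0.072 and 0.066 for Slc2a2. The KO-labelled minus WT-labelled difference of Slc2a2 was -0.012 at 2 months and 0.126 at 8 months.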

How the results depend on the processing

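The genotype direction of each of the 10 genes was the same in every alternative run, Ppargc1a having no value under the stricter filter. The calls of G6pc, Slc37a4 and Got1 held in all of them. The count of the 10 genes that fell was 3 without the filter and 3 without the intensity trend, and 2 rose under cyclic loess. Over all genes 463 rose and 289 fell without the filter, 521 and 325 without the trend, 1087 and 880 under cyclic loess, 746 and 669 with quantile normalization again and 913 and 418 with median centring, against 815 and 510 as reported. The all-gene count for age was 0 without the filter, the trend or the genotype term, with a robust prior or quantile normalization again, 2 with median centring or the brightest probe set and 17 under cyclic loess. The fitted age difference of Slc2a2 changed sign to 0.0059 with quantile normalization again and 0.017 under cyclic loess. At 2 months 1 gene was 1.5-fold higher with the brightest probe set, G6pc and no longer Ppargc1a, and 0 were lower with median centring. At the lower fold threshold 4 genes were lower at 2 months and 5 at 8 months, and at 2-fold 0 were apart in either direction. The shift of G6pc over Slc37a4 ran from 1.34 to 1.36. The causes were not tested. The model compares the genotypes within each age, and without its age term 1 of the 10 genes rose and 6 fell, the same counts as with it. Leaving out an array leaves the additive model without residual degrees of freedom, and the value is then the difference at the other age.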
